A study of Mus musculus with 12 samples.

Results

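Kidney epithelial transcription factors were followed as a set of 8 genes: the nuclear receptor genes Hnf4a, Hnf4g and Nr1h4, the paired box genes Pax2 and Pax8, the basic leucine zipper gene Maf, and the distal nephron factor genes Tfap2b and Tfcp2l1. They were taken by symbol from per-mouse gene tables that list 55401 genes, and all 8 were among the 14159 genes with enough reads to be tested. They were picked by symbol, with earlier results of these data known. Whole kidneys came from male C57BL6 mice aged 8 weeks that had received a single intraperitoneal injection. In 6 mice the injection held vehicle, a 15% solution of 2-Hydroxypropyl-beta-cyclodextrin, and in 6 mice SK-124, a small-molecule inhibitor of the salt-inducible kinases SIK2 and SIK3, at 40 mg/kg. Each library was made from the kidney mRNA of 1 mouse, and the time between injection and collection of these kidneys was not given in the sources used here. The descriptions name no transgene or deleted gene in either group. The comparison of the groups asks which kidney transcripts differ after acute inhibition of these kinases, which act below the parathyroid hormone receptor in tubule cells.

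The nephron is built from segments, and each segment keeps its own set of transporters because a small number of DNA-binding proteins hold its program in place. HNF4A drives the maturation of the proximal tubule, PAX2 and PAX8 specify the whole renal epithelial lineage and stay on in the adult distal tubule and collecting duct, and TFAP2B and TFCP2L1 act in the distal convoluted tubule and the collecting duct. NR1H4, the bile acid receptor FXR, and MAF add metabolic and antioxidant programs in tubule cells.

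Expected counts, the read numbers that RSEM estimates for each gene, summed to between 19350134 and 19771802 in vehicle-treated mice and to between 19244227 and 19530313 in SK-124-treated mice. The 10 most abundant genes took 39.9% to 43.2% of counts in vehicle-treated mice, 44.4% to 46.8% in SK-124-treated mice 1 to 3, and 38.6% to 40.2% in SK-124-treated mice 4 to 6, and the labels name no batch. The tissue label was met by its proximal tubule markers. The summed TPM of 10 such markers lay between 4156 and 5494 in all 12 mice. Among adrenal markers, Cyp11b2 and Cyp21a1 had no counts in any mouse. Cyp11b1, Hsd3b1, Mc2r and Star had at most 1, 2, 8 and 17 expected counts in a mouse. Fat markers summed to 0.0 to 23.3 TPM with vehicle and to 0.07 to 11.7 TPM with SK-124. Across all genes tested, 10.8% were higher and 13.5% were lower with SK-124 at an adjusted p under 0.05. In either direction these made up 24.4%. FDR stands for p-values of the quasi-likelihood test of edgeR after adjustment by the Benjamini-Hochberg method over all genes tested.

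In vehicle-treated kidneys the 8 genes covered a wide range of levels per transcript length. Hnf4a stood highest, at 134 ± 12.3 TPM (SD, n = 6), where TPM is RSEM's transcript abundance, corrected for transcript length and scaled to the same total in every library. Maf, Nr1h4 and Pax8 formed a middle tier at 40.2 ± 3.39, 36.5 ± 9.74 and 35.1 ± 2.11 TPM. Tfap2b, Pax2 and Tfcp2l1 formed a lower tier at 13.4 ± 3.77, 11.6 ± 2.31 and 9.92 ± 1.56 TPM, and Hnf4g, the close relative of Hnf4a, was last at 2.57 ± 0.48 TPM.

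By range over the mice the tiers were separate and genes within a tier overlapped. Tiers and order were both taken from these same means, and no neighbouring pair passed 0.05 after adjustment. Ranges over the 6 mice did not overlap between Hnf4a and Maf, between Pax8 and Tfap2b, or between Tfcp2l1 and Hnf4g, and they overlapped for the other 4 neighbouring pairs. In each of those 3 pairs, and for Pax2 over Tfcp2l1, the higher gene exceeded the lower in 6 of 6 mice (two-sided exact sign-flip permutation test on log2 TPM, p = 0.0312, the smallest possible with 6 mice, adjusted over 7 pairs 0.0547). Within the middle tier the ratio of geometric means was 1.13 for Maf over Nr1h4 (exact permutation p = 0.156, higher in 5 of 6 mice) and 1.01 for Nr1h4 over Pax8 (exact permutation p = 0.906, higher in 3 of 6 mice). With SK-124, Nr1h4 stood second at 59.6 ± 12.8 TPM and Pax2 seventh at a mean of 7.39 TPM, while the other members kept their relative order. The plot of levels by gene shows both moves.

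**Figure D1:**
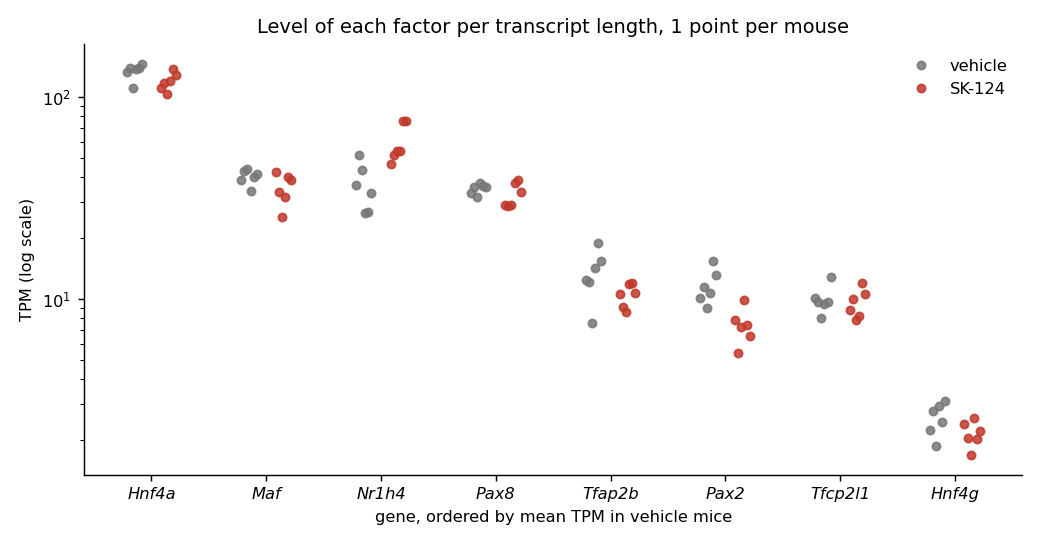
TPM on a log axis for each of the 8 genes, ordered by mean TPM in vehicle-treated mice, with 1 grey point per vehicle-treated and 1 red point per SK-124-treated mouse. Hnf4a lies near 134 TPM and Hnf4g near 2.57 TPM in vehicle-treated mice, and red points sit mostly above grey ones for Nr1h4 and mostly below them for Pax2.

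SK-124 was followed by more Nr1h4 mRNA and less Pax2 and Tfap2b mRNA, and the other 5 genes did not pass the test. Thus 1 of 8 members was higher, against 10.8% of all genes tested, and 2 of 8 were lower, against 13.5% (3 of 8 in either direction, against 24.4%), so these counts do not set the members apart from other genes. The median log2 fold change over the members was -0.040, and that over all genes tested was -0.0050. Of the 8 members 1, Nr1h4, had groups that did not overlap in CPM (counts divided by TMM-scaled library totals, edgeR's usual scale), which was true of 13.0% of all genes tested. In whole-kidney RNA, fewer cells of a type and less of a transcript per cell cannot be told apart.

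**Figure D2:**
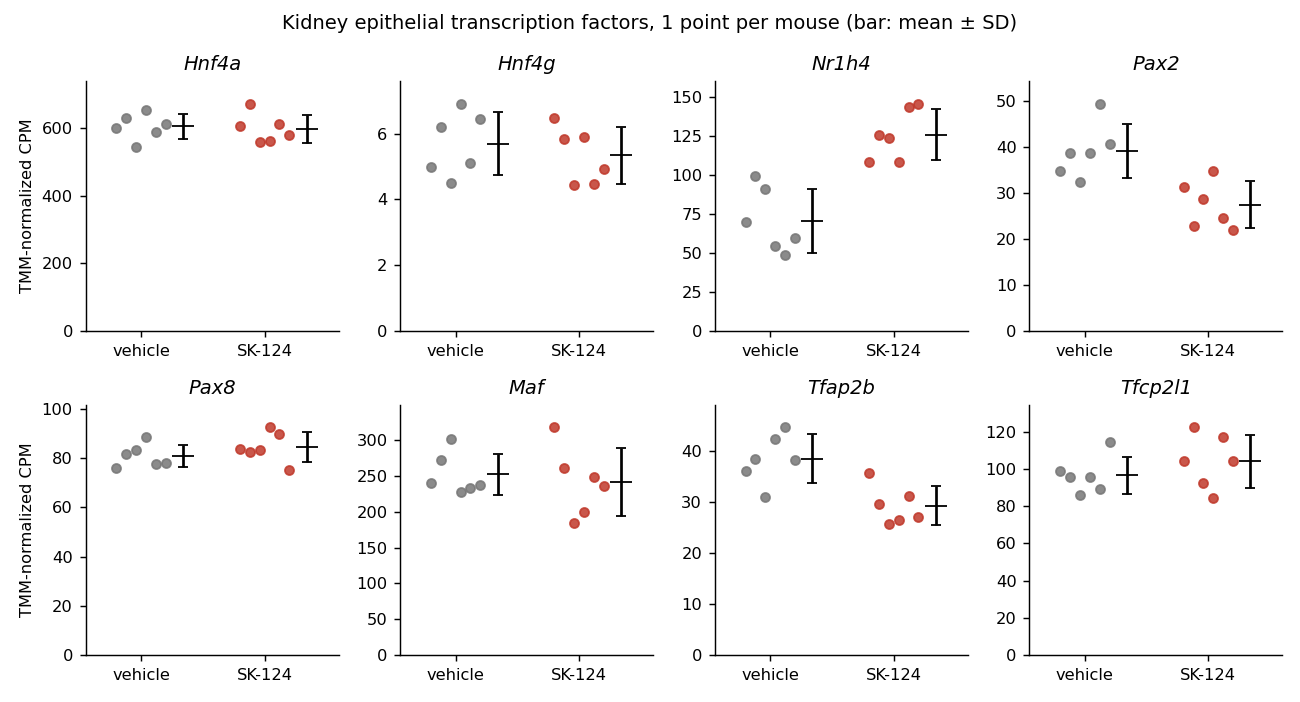
TMM-normalized CPM of the 8 genes in separate panels with axes from 0, 1 point per mouse, vehicle in grey and SK-124 in red, with the mean and SD of the 6 mice as a bar. The 6 red points for Nr1h4, from 107.9 to 145.5 CPM, lie above all grey points, whereas 5 red points for Pax2 and 4 for Tfap2b lie below all grey points.

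Hnf4a, a master regulator of proximal tubule and liver genes, did not pass the test. Its CPM ranged from 543 to 652 in vehicle-treated mice, with a median of 605. After SK-124 the range was 557 to 670, with a median of 591. The groups lay over each other, and the log2 fold change was -0.016 (standard error 0.060, 95% interval -0.14 to 0.11, FDR = 0.880). A change of more than about 0.14 in either direction lay outside the interval of this fit. The log2 fold change was -0.13 when libraries were scaled by their totals alone, and -0.17 in a limma fit of log2(TPM + 1). Under these settings the median of all genes tested moved to -0.12 and -0.11. Hnf4a was also the most steady of the 3 nuclear receptor genes between mice, with a coefficient of variation of 6.19% in vehicle-treated mice. Hnf4a lies on chromosome 2 from 163506808 to 163572910 (GENCODE M21, GRCm38, plus strand), and the antisense gene Hnf4aos, which overlaps it, held 32 to 60 counts per mouse against at least 9949 for Hnf4a. Whether the counting used strand was not given in the sources used here.

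Among annotated transcripts, the Hnf4a reads were assigned almost wholly to those from the downstream start, known as P1, which is the adult kidney and liver promoter. The average transcript length that RSEM weighted by abundance was 4356 to 4362 bases in all 12 mice, and the only annotated transcripts of such length, of 4356 and 4362 bases, start at 163547188 and 163547187. The only annotated transcript from the upstream start, at 163506808, has 431 bases. A longer transcript from that start has no annotated form, so its reads could be assigned to the 4356- and 4362-base transcripts. The average length therefore cannot decide which start was used. RefSeq gives a promoter window, 250 bases before to 50 bases after the start, for 6 of the 8 members and 9 windows in all (GRCm38.p6), and Hnf4g and Maf have none in that table. Windows were searched on both strands for TGACG, the core of the cAMP response element, for its full form TGACGTCA, for the HNF4 site CAAAGTCCA, for the NR1H4 inverted repeat and for the TATA box TATAAA, so that a full form also counts as a match of its core. The window at the downstream Hnf4a start, chr2:163546905-163547204 on the plus strand, is shown because the 4356- and 4362-base transcripts start within it. It holds none of these motifs, so that no letter is in capitals:
Hnf4a downstream start: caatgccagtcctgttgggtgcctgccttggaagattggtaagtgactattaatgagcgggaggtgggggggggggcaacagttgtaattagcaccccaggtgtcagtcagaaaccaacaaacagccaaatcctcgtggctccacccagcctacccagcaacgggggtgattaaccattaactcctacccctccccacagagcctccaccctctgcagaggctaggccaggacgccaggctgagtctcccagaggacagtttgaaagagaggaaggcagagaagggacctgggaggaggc
A match of letters is a description and not a binding site, and shares of windows with a match were taken over all 32851 RefSeq promoter windows of this length.

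Hnf4g, which encodes a nuclear receptor that shares DNA sites with HNF4A, was the least abundant member, with 79 to 137 expected counts per mouse. In vehicle-treated mice CPM values ran from 4.49 to 6.91, with a median of 5.66. In SK-124-treated mice the values lay between 4.43 and 6.49, with a median of 5.38. The groups overlapped over almost their whole range, and the log2 fold change was -0.095 (standard error 0.13, 95% interval -0.36 to 0.17, FDR = 0.638). Counting error alone gives a coefficient of variation of 11.3% at the lowest count, beside 16.8% measured between vehicle-treated mice, so a change smaller than this interval was not detectable for Hnf4g at this depth. The ratio of Hnf4a to Hnf4g TPM within a mouse ranged from 46.3 to 59.4 with vehicle and from 45.8 to 67.7 with SK-124. The log2 ratio of Hnf4g to Hnf4a differed by -0.074 (two-sided exact permutation p = 0.537, adjusted over 2 ratios 0.537), and the groups overlapped.

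Most genes that HNF4 proteins are known to drive did not pass the test. Of 14 such genes on the list, 14 were tested, 3 were higher and 0 were lower, and these 3 of 14 stand beside 24.4% of all genes tested. The 3 are enzymes of glucose production: G6pc, the last step of glucose release, rose from 300.7 ± 44.4 to 1090 ± 146 CPM (SD, n = 6), Pck1, which makes phosphoenolpyruvate, rose from 634 ± 138 to 2270 ± 344 CPM, and Fbp1, a fructose bisphosphatase, rose from 400.0 ± 16.9 to 452 ± 17.5 CPM. Their log2 fold changes were 1.86, 1.84 and 0.18, with an FDR of 0.0140 for Fbp1, the least certain of them. The proximal tubule transporter genes on this list did not pass the test, among them the organic anion transporter Slc22a6 at 853 ± 68.5 and 839 ± 58.3 CPM and the phosphate transporter Slc34a1 at 4749 ± 208 and 4527 ± 408 CPM. The list's median was -0.0039, beside -0.0050 over all genes tested, and its count of calls rose to 5 with DESeq2 and with library totals alone, and to 6 without vehicle-treated mouse 3.

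Nr1h4, which encodes the bile acid receptor FXR, rose. In vehicle-treated mice its CPM ranged from 48.8 to 99.6, with a median of 64.5. With SK-124 it ranged from 107.9 to 145.5, with a median of 124.8. All 6 SK-124-treated mice lay above all 6 vehicle-treated mice, and vehicle-treated mice 2 and 3, at 99.6 and 91.0 CPM, were the highest of their group. The log2 fold change was 0.84 (standard error 0.15, 95% interval 0.52 to 1.15, FDR = 0.000473), a 1.79-fold rise with an interval of 1.44 to 2.22. Relabelling the mice in every way, a two-sided exact permutation test of mean log2(CPM + 0.5), gave p = 0.00216, the smallest that 6 mice against 6 allow. In TPM the ranges met, at 26.8 to 51.6 with vehicle and 46.4 to 75.7 with SK-124. Of all genes tested, 95.5% had a smaller absolute log2 fold change.

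The Nr1h4 rise was as large when set against a sum of proximal tubule markers. Divided by the summed TPM of 10 proximal tubule markers, a ratio added after the data had been seen, Nr1h4 was higher by 0.89 on the log2 scale (two-sided exact permutation p = 0.00216, no overlap between groups). That sum itself ranged from 4717 to 5494 TPM with vehicle and from 4156 to 5190 TPM with SK-124. It rested mainly on Slc34a1, Miox and Slc27a2, with vehicle means of 2133, 1392 and 790 TPM. Of the 10 markers 1 was higher, beside 10.8% of all genes tested, and 1 was lower, beside 13.5%. Nr1h4 varied more between vehicle-treated mice than any other member, with a coefficient of variation of 29.3%.

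The RefSeq window of Nr1h4, chr10:89506609-89506908 on the minus strand, is shown because Nr1h4 was the one member that rose, written 5′ to 3′ along the gene, and none of the motifs was found in it:
Nr1h4: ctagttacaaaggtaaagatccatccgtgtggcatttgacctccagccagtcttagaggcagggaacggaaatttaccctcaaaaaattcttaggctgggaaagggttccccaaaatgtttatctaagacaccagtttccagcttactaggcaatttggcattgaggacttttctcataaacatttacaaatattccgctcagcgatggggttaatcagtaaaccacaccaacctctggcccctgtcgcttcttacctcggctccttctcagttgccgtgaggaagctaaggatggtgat
Its start is that of a 1985-base transcript, and the average length of 1969 to 1972 bases in the 12 mice lay between this transcript and the 1964-base transcript that starts at 89506649. The third annotated transcript, of 2013 bases, starts upstream at 89533585.

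Known NR1H4 target genes were in part too low to test in kidney. Of 10 on the list 5 were tested, 2 were higher, beside 10.8% of all genes tested, and 0 were lower, beside 13.5%. Slc51b, the beta subunit of the organic solute transporter that exports bile acids, rose from 20.9 ± 4.05 to 28.5 ± 5.13 CPM (SD, n = 6), a log2 fold change of 0.45 ± 0.12 (standard error) with an FDR of 0.0137 and groups that overlapped. Aqp2, the water channel of principal cells, rose from 105 ± 20.03 to 177 ± 42.7 CPM, a log2 fold change of 0.75 ± 0.14 with an FDR of 0.000852. Aqp2 stands on several of the lists given here. Nr0b2, the corepressor SHP and the standard readout of NR1H4 in liver, did not pass the test at 1.24 ± 0.23 and 0.95 ± 0.34 CPM, with a log2 fold change of -0.38 (FDR = 0.239). Slc51a, the alpha subunit, was at 52.5 ± 3.81 and 60.3 ± 31.1 CPM (FDR = 0.540), and Abcc2, an export pump and the most abundant of those tested, at 263 ± 14.5 and 275 ± 49.4 CPM (FDR = 0.662). The list's count of calls fell to 1 with library totals, with TPM and with SK-124-treated mice 1 to 3 alone. Rxra, the dimer partner of NR1H4, had a log2 fold change of 0.12 (FDR = 0.152), and the related liver X receptors Nr1h2 and Nr1h3 had ones of 0.036 and 0.037 (FDR = 0.643 and 0.796).

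Pax2, needed to form the kidney and kept on in the collecting duct, fell. Its CPM ranged from 32.4 to 49.4 in vehicle-treated mice, with a median of 38.7. After SK-124 the range was 22.1 to 34.9, with a median of 26.7. In 5 of 6 SK-124-treated mice Pax2 was below every vehicle-treated mouse, SK-124-treated mouse 4 at 34.9 CPM lay within the vehicle range, and all 6 were below the vehicle median. The log2 fold change was -0.51 (standard error 0.12, 95% interval -0.76 to -0.27, FDR = 0.00321), a level 0.701 times that of vehicle with an interval of 0.592 to 0.830. The exact permutation test over mice gave p = 0.00649. In TPM, Pax2 ranged from 9.0 to 15.4 with vehicle and from 5.37 to 9.88 with SK-124.

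Pax8, the paralog that acts beside Pax2 in the nephric lineage, did not pass the test. In vehicle-treated mice CPM values ran from 76.0 to 88.6, with a median of 79.9. In SK-124-treated mice the values lay between 75.4 and 92.6, with a median of 83.7. The groups lay over each other, and the log2 fold change was 0.065 (standard error 0.057, 95% interval -0.055 to 0.19, FDR = 0.453). Its sign turned when libraries were scaled by their totals alone or when TPM was used, at -0.044 and -0.10, and the median of all genes tested moved to -0.12 and -0.11 under the same settings.

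The balance between Pax2 and Pax8 differed between the groups. The ratio of Pax8 to Pax2 TPM within a mouse, which does not depend on how libraries are scaled, ranged from 2.34 to 3.54 in vehicle-treated mice, with a median of 3.21. With SK-124 it ranged from 3.71 to 5.34, with a median of 4.57. The 6 SK-124-treated mice all lay above the 6 vehicle-treated mice. The log2 ratio of Pax2 to Pax8 was lower by 0.55 on average (SK-124 minus vehicle -0.55, two-sided exact permutation p = 0.00216, adjusted over 2 ratios 0.00433), and with each mouse left out in turn it stayed between -0.61 and -0.48.

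**Figure D3:**
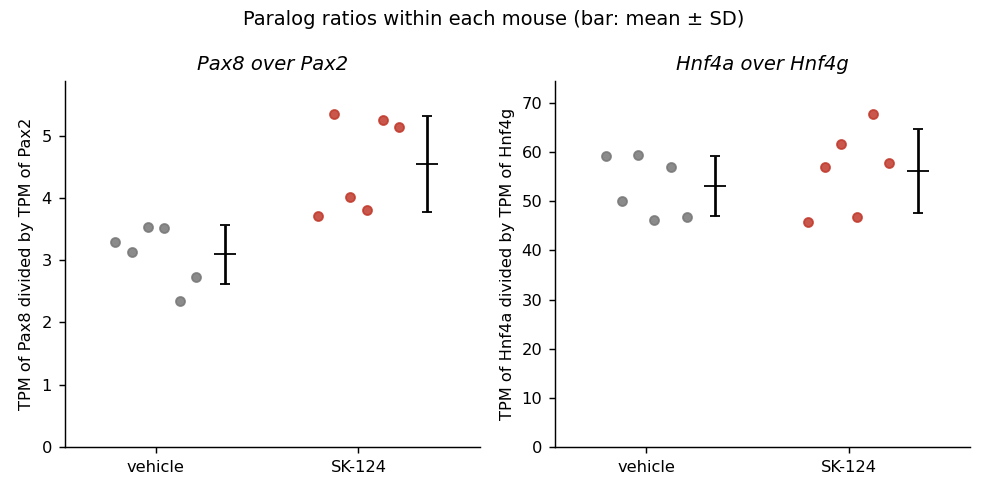
Ratio of TPM within each mouse for Pax8 over Pax2 (left) and Hnf4a over Hnf4g (right), 1 point per mouse, axes from 0, with the mean and SD of the 6 mice of each group as a bar. Pax8 over Pax2 runs from 2.34 to 3.54 with vehicle and from 3.71 to 5.34 with SK-124 with no overlap, while Hnf4a over Hnf4g overlaps between the groups.

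Principal cell markers of the collecting duct moved both ways. Of 7 markers 1 was higher, beside 10.8% of all genes tested, and 2 were lower, beside 13.5%, and their summed TPM ranged from 211 to 306 with vehicle and from 171 to 326 with SK-124. Aqp2 was the one that rose, and without it the other 6 summed to 139 to 191 TPM with vehicle and to 99.8 to 151 TPM with SK-124. Avpr2, the vasopressin receptor, fell from 8.62 ± 1.12 to 3.81 ± 0.51 CPM (SD, n = 6), and Hsd11b2, which inactivates glucocorticoid, fell from 122 ± 8.48 to 95.4 ± 4.13 CPM. Divided by the summed TPM of all 7 markers, a ratio added after the data had been seen, Pax2 was lower, with a difference of -0.69 on the log2 scale (two-sided exact permutation p = 0.00216, no overlap between groups). The value rested in large part on Aqp2: without Aqp2 in the sum the difference was -0.31 (exact permutation p = 0.0260) and the groups overlapped.

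Pax2 has 3 RefSeq windows, and the most downstream, chr19:44756656-44756955 on the plus strand, is shown because it holds 30 CG dinucleotides where the median window holds 7, and because none of the searched motifs was found in any Pax2 window, so that no letter is in capitals:
Pax2: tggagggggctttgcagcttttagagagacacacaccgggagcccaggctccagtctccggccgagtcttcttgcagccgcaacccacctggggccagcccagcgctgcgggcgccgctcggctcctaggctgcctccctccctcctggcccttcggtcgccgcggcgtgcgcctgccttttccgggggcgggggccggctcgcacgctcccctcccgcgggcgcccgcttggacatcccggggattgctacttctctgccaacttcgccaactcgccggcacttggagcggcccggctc
No annotated Pax2 transcript starts within this window, as the annotated starts are at 44756045, 44757394 and 44759915. G and C made up 71.7% of this window and 45.7% of the Nr1h4 window, and the median over all windows was 52.7%. The Pax8 window, chr2:24475550-24475849 on the minus strand, also held none of the motifs, with 7 CG dinucleotides.

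Most genes placed below PAX2 and PAX8 in kidney development did not pass the test. Of 13 on the list 11 were tested, 1 was higher and 2 were lower, and these 3 of 11 stand beside 24.4% of all genes tested. Wnt9b, the collecting duct signal that induces nephrons, fell from 3.93 ± 1.76 to 1.33 ± 0.58 CPM (SD, n = 6), a log2 fold change of -1.56 ± 0.31 (standard error) with an FDR of 0.00129. Lhx1, a homeobox factor of the early nephron, fell from 22.6 ± 4.13 to 17.2 ± 2.26 CPM, with a log2 fold change of -0.40 (FDR = 0.0186) and groups that overlapped. Cdh16, the kidney-specific cadherin, was at 833 ± 39.3 and 844 ± 15.7 CPM (FDR = 0.824), and Gata3, a collecting duct factor, was at 13.5 ± 2.14 and 12.1 ± 1.81 CPM (FDR = 0.326). The higher gene was Aqp2.

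Maf, a large MAF factor that supports metabolic and antioxidant genes of the proximal tubule, did not pass the test. Its CPM ranged from 227 to 301 in vehicle-treated mice, with a median of 239. After SK-124 the range was 185 to 318, with a median of 242. SK-124-treated mice held both the lowest and the highest value of all 12, in mice 3 and 1, and the coefficient of variation was 19.6% with SK-124 and 11.4% with vehicle. The log2 fold change was -0.063 (standard error 0.11, 95% interval -0.29 to 0.17, FDR = 0.725).

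Some relatives of Maf rose. Maff, a small MAF partner that lacks an activation domain, rose from 1.15 ± 0.35 to 8.01 ± 2.05 CPM (SD, n = 6), with a log2 fold change of 2.80 (standard error 0.20). Mafk, a second small MAF, rose from 13.8 ± 1.75 to 25.7 ± 3.04 CPM (log2 fold change 0.90). Neither overlapped between groups, and the third small MAF, Mafg, was at 52.3 ± 3.04 and 56.7 ± 2.36 CPM (FDR = 0.120). In all, 15 of 25 listed partners and relatives of the members were tested. Of these 2 were higher, beside 10.8% of all genes tested, and 2, Tfcp2 and Nr2f6, were lower, beside 13.5%.

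Tfap2b, which keeps distal convoluted tubule and collecting duct cells differentiated, fell. In vehicle-treated mice CPM values ran from 31.0 to 44.6, with a median of 38.3. In SK-124-treated mice the values lay between 25.7 and 35.7, with a median of 28.4. In 4 of 6 SK-124-treated mice it was below every vehicle-treated mouse, SK-124-treated mice 1 and 5 at 35.7 and 31.1 CPM lay within the vehicle range, and all 6 were below the vehicle median. The log2 fold change was -0.39 (standard error 0.092, 95% interval -0.59 to -0.20, FDR = 0.00418), a level 0.761 times that of vehicle. The exact permutation test over mice gave p = 0.00649.

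The Tfap2b call depended on the scale. In TPM the gene was at 13.4 ± 3.77 with vehicle and 10.5 ± 1.38 with SK-124 (SD, n = 6), and limma on log2(TPM + 1) gave a log2 fold change of -0.30 with an adjusted p of 0.193. RSEM's TPM interval for a mouse spanned on average 33.9% of TPM for Tfap2b and 36.4% for Hnf4g. For the other members it spanned 3.57% to 15.9%. With SK-124-treated mice 1 to 3 alone the log2 fold change was -0.34 and the FDR 0.0712. Divided by the summed TPM of 5 distal convoluted tubule markers, a ratio added after the data had been seen, the difference was -0.16 on the log2 scale (two-sided exact permutation p = 0.413), and the groups overlapped. That marker sum ranged from 342 to 442 TPM with vehicle and from 284 to 524 TPM with SK-124. Of the 5 markers 1 was lower, beside 13.5% of all genes tested. This was Wnk4, a kinase that controls salt transport, which fell from 113 ± 6.61 to 76.9 ± 8.93 CPM.

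Tfap2b was also the member whose average transcript length varied most between mice. The length ranged from 2525 to 3665 bases in vehicle-treated mice, with a median of 2846. With SK-124 it ranged from 2187 to 2778 bases, with a median of 2554. The groups overlapped, the highest value was that of vehicle-treated mouse 3, and the mean differed by -411 bases (two-sided exact permutation p = 0.0281, adjusted over 12044 genes with varying length 0.740). Its annotated coding transcripts are of 1946, 3023 and 5863 bases, and the shortest starts at 19212054 where the longer ones start at 19208960 and 19208914. Vehicle-treated mouse 3 had the lowest TPM, 7.57, and the lowest CPM of its group, 31.0. The same test gave p = 0.0130 for Maf, whose mean length differed by -112 bases (exact permutation test, adjusted 0.656). At an unadjusted p under 0.05 these were 2 of the 8 members, beside 6.03% of the 12044 genes. After adjustment 0.0% passed, but with 6 mice against 6 at least 522 genes would have to reach the smallest exact permutation p for any to pass, and 73 did, so the adjusted values cannot decide whether the Tfap2b and Maf lengths differed.

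**Figure D4:**
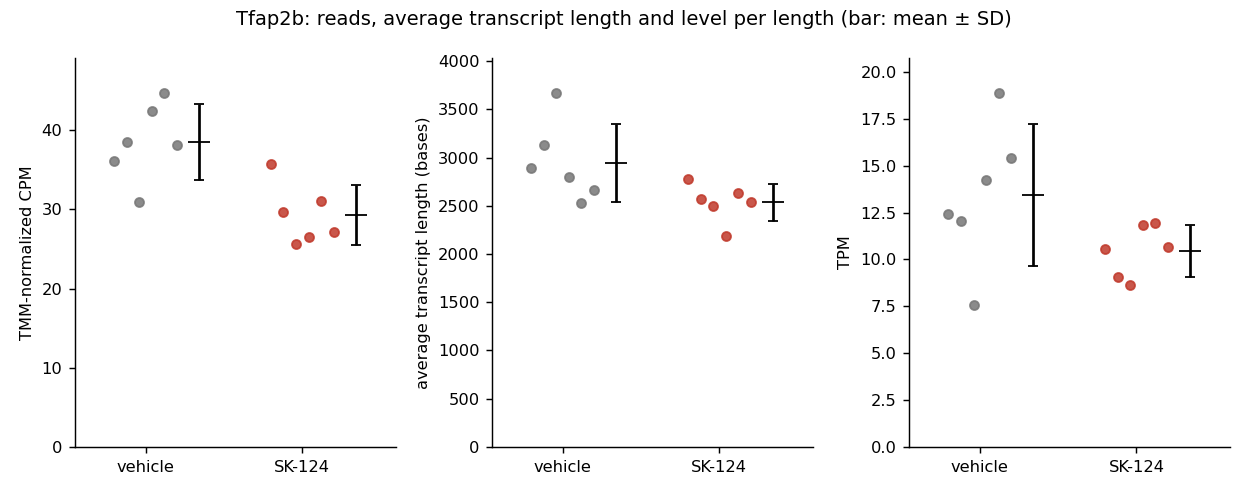
Tfap2b in the 12 mice as TMM-normalized CPM (left), average transcript length in bases (middle) and TPM (right), 1 point per mouse, axes from 0, with the mean and SD of each group as a bar. CPM runs from 31.0 to 44.6 with vehicle and from 25.7 to 35.7 with SK-124, vehicle-treated mouse 3 stands out with a length of 3665 bases, and the TPM ranges of the groups overlap.

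The RefSeq window of Tfap2b, chr1:19211804-19212103 on the plus strand, belongs to the start of the 1946-base transcript and is shown because this is one of the members that fell, with capitals marking TGACG, read on the minus strand, at -108:
Tfap2b: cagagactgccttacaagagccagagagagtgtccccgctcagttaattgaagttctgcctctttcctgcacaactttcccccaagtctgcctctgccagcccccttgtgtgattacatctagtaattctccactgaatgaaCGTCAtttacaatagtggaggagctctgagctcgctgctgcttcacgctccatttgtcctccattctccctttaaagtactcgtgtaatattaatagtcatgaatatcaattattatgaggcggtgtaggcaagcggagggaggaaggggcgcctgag
TGACG is found in 20.8% of all RefSeq windows, the full element TGACGTCA in 1.79% and in none of the members' windows. The window of Tfcp2l1, chr1:118627695-118627994, held TGACG at -36 and TATAAA at -28, and TATAAA is found in 13.6% of all windows. The HNF4 site was found in 0.475% of all windows, the NR1H4 repeat in 0.00913%, and neither in the members' windows.

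Tfcp2l1, which sets the mix of principal and intercalated cells in the collecting duct, did not pass the test. Its CPM ranged from 85.8 to 114.7 in vehicle-treated mice, with a median of 95.4. With SK-124 it ranged from 84.3 to 122, with a median of 104. The groups overlapped almost fully, and the log2 fold change was 0.11 (standard error 0.088, 95% interval -0.077 to 0.29, FDR = 0.415). Its sign turned with library totals alone and with TPM, at -0.010 and -0.049. Tfcp2, a relative with the same DNA-binding fold, fell from 19.9 ± 1.62 to 14.9 ± 1.26 CPM (SD, n = 6), with a log2 fold change of -0.42 (FDR = 0.000330) and no overlap.

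Genes that mark the segments of TFAP2B and TFCP2L1 changed in both directions. Of 16 on the list 16 were tested, 6 were higher, beside 10.8% of all genes tested, and 3 were lower, beside 13.5%, with a median log2 fold change of 0.044. The 9 calls fell to 4 with limma on TPM. Among intercalated cell genes, the anion exchangers of base-secreting cells, Slc4a9 and Slc26a4, rose from 51.2 ± 4.83 to 65.5 ± 5.39 and from 28.8 ± 3.41 to 34.8 ± 2.49 CPM (SD, n = 6), and the exchanger of acid-secreting cells, Slc4a1, fell from 48.3 ± 4.36 to 32.1 ± 5.15 CPM. Foxi1, the intercalated cell master factor, rose from 24.1 ± 1.91 to 30.2 ± 5.32 CPM (log2 fold change 0.33, FDR = 0.0220), and of the proton pump subunits Atp6v0a4 rose with a log2 fold change of 0.32, Atp6v1b1 fell with one of -0.21, and Atp6v1g3 and Atp6v0d2 did not pass the test with ones of 0.044 and -0.037 (FDR = 0.785 and 0.702). Jag1, a Notch ligand, fell from 8.32 ± 0.84 to 5.74 ± 0.58 CPM, and Wnk1, a salt-transport kinase, rose from 321 ± 43.6 to 414 ± 35.6 CPM. Slc12a3, the thiazide-sensitive transporter that defines the distal convoluted tubule, was at 699 ± 66.7 and 720 ± 108 CPM (FDR = 0.791). Slc4a1 is also a major red cell gene, and of 5 blood markers 0 were higher and 0 lower, with summed TPM of 1287 to 3211 with vehicle and 1214 to 2097 with SK-124. The part of blood in the Slc4a1 value was not tested.

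Other transcription factors of the nephron were called in both directions. Of 41 on a wider list 39 were tested, 7 were higher, beside 10.8% of all genes tested, and 15 were lower, beside 13.5%, with a median log2 fold change of -0.16. Esrrb, an orphan nuclear receptor, rose from 22.0 ± 1.56 to 48.8 ± 4.15 CPM (SD, n = 6, log2 fold change 1.15), whereas its relative Esrra fell from 55.2 ± 4.48 to 39.3 ± 1.93 CPM (log2 fold change -0.49) and Esrrg did not pass the test (log2 fold change 0.17, FDR = 0.152). Other factors that fell included Emx2 (-0.71), Tbx2 (-0.71), Nr3c2, the mineralocorticoid receptor (-0.67), Gata2 (-0.61) and Pou3f3 (-0.33), and those that rose included Ehf (0.64), Sim2 (0.48) and Irx2 (0.39), all as log2 fold changes.

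Several factors on this list are also factors of other cells of the kidney. Tcf21, a factor of podocytes and stromal cells, had the largest fall on the list, from 14.2 ± 2.98 to 3.72 ± 0.95 CPM (log2 fold change -1.93), and Prox1, a factor of lymphatic vessels, fell from 12.3 ± 2.30 to 5.47 ± 1.44 CPM (log2 fold change -1.17). Foxc1 rose from 8.02 ± 0.97 to 11.1 ± 0.96 CPM (log2 fold change 0.47, FDR = 0.000710) without overlap. Wt1, also one of the podocyte markers, did not pass the test (log2 fold change -0.0069, FDR = 0.976). Of 7 stromal markers 1, Acta2, was higher and 1, Pdgfrb, was lower, with summed TPM of 35.1 to 49.8 with vehicle and 25.1 to 51.4 with SK-124. Of 5 podocyte markers 0 were higher and 0 lower, with summed TPM of 32.0 to 60.4 with vehicle and 29.4 to 41.9 with SK-124. Of 6 immune markers tested 0 were higher and 1, Cd79a of B cells, was lower. Of 6 endothelial markers 1, Kdr, was lower, with summed TPM of 59.0 to 85.5 with vehicle and 42.2 to 80.2 with SK-124. These marker counts stand beside 10.8% of all genes tested that were higher and 13.5% that were lower. The part of these cells in the values was not tested.

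**Figure D5:**
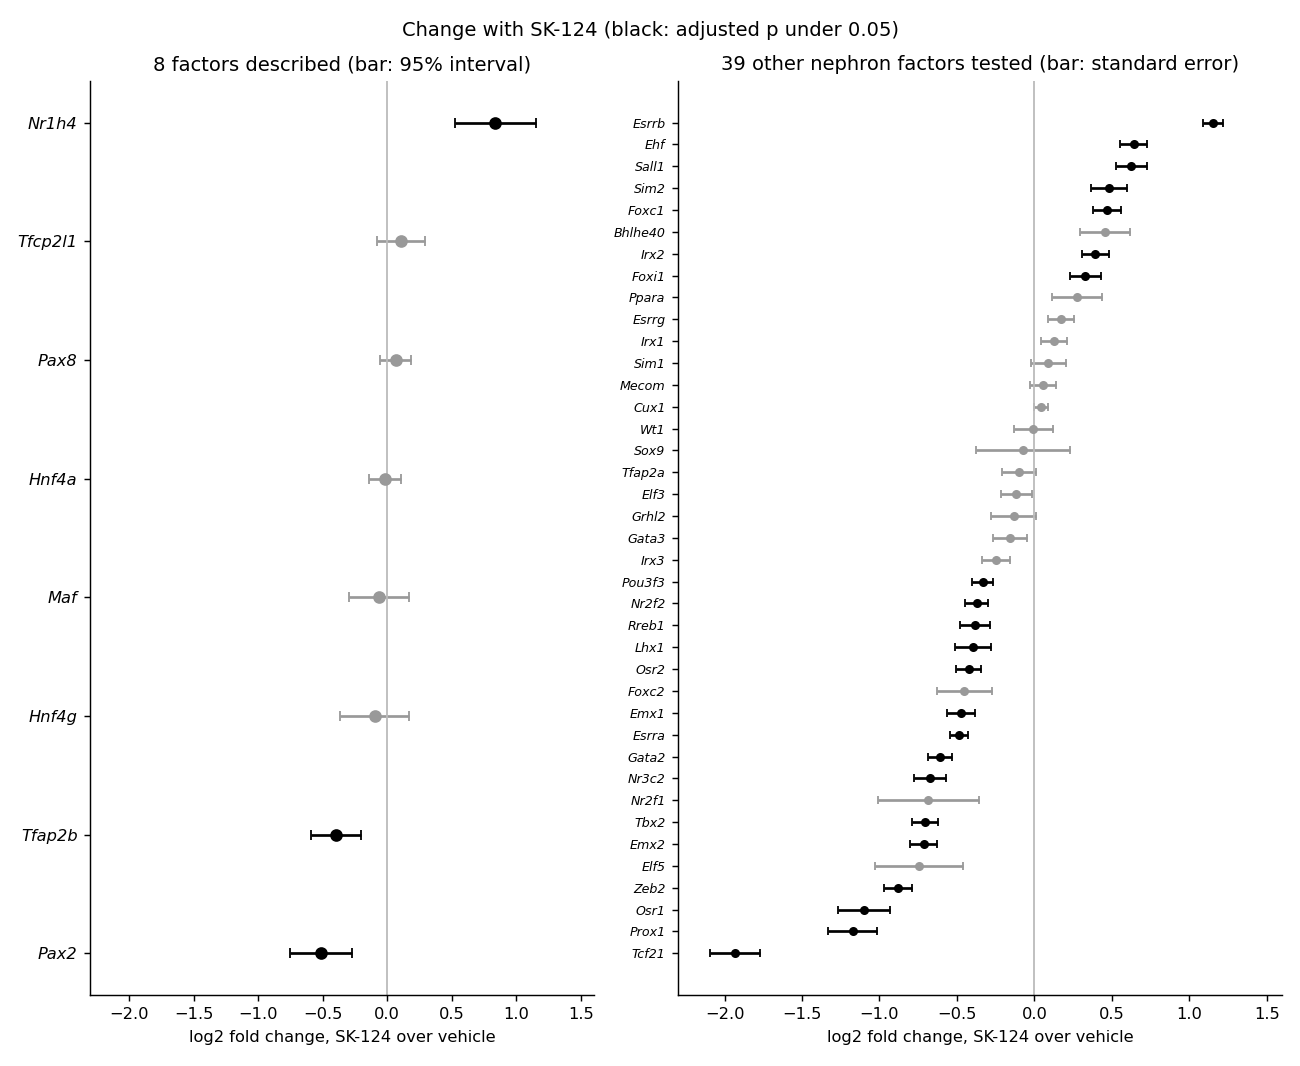
Log2 fold change of SK-124 over vehicle for the 8 members with 95% intervals (left) and for the 39 other nephron transcription factors tested with standard errors (right), on the same horizontal scale, black where the FDR is under 0.05. Members run from -0.51 for Pax2 to 0.84 for Nr1h4, and the other factors from -1.93 for Tcf21 to 1.15 for Esrrb.

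Several markers of tubular injury were higher with SK-124. Of 6 listed, 5 were tested and 4 were higher, beside 10.8% of all genes tested: Lcn2 (log2 fold change 0.88), Vcam1 (0.63), Spp1 (0.36) and Clu (0.29), with the summed TPM of the list at 439 to 543 with vehicle and 409 to 755 with SK-124. Havcr1, the kidney injury molecule gene, did not pass the test, with a log2 fold change of 0.33 (FDR = 0.272). The part of these genes in the Nr1h4, Pax2 and Tfap2b values was not tested. Of the remaining marker lists, thick ascending limb had 2 of 6 higher and 0 lower, and intercalated cells 3 of 7 higher and 2 lower. Over all genes tested 10.8% were higher and 13.5% were lower. The adrenal and fat lists each had 1 gene tested, which did not pass.

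Likeness over the 12 mice was measured for each member as Pearson's r of log2(CPM + 0.5) with every other gene tested, and the gene with the highest r is named as a description. It was Fubp1 for Tfap2b (r = 0.972), Psme4 for Tfcp2l1 (0.951), Zkscan14 for Nr1h4 (0.940), Hexim1 for Pax2 (0.935) and Zdhhc5 for Hnf4a (0.930). It was lower for Hnf4g (Ccdc85a, r = 0.891), Pax8 (Rnf220, 0.867) and Maf (1110002L01Rik, 0.866). Each is the highest over all other genes tested and over mice of both groups, so a shared treatment difference enters it.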

How the data were processed

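Libraries of kidney mRNA from 12 mice were sequenced on a BGISEQ instrument. Per the labels' processing notes the submitters used FastQC, STAR 2.7.2b, RSEM 1.3.0 and DESeq2 with mm10, and the annotation and use of strand were not given in the sources used here. The deposited tables hold RSEM expected counts (estimated reads, not normalized), the deposited TPM and FPKM (scaled by the authors' RSEM run to effective length and library total), and the average transcript length. They also hold RSEM's posterior SD and interval bounds, score columns of the authors' files used only to judge read assignment. The posterior SD of a member's count was at most 0.49, which covers assignment between genes. It does not cover assignment between transcripts of a gene, which enters TPM and average length. Of 55401 gene identifiers 55141 matched GENCODE M21 with or without version, and all 8 members matched with version.

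Expected counts were rounded, filtered by edgeR's filterByExpr (14159 genes left), scaled by TMM and fitted with edgeR 4.0.16 (glmQLFit, glmQLFTest) in R 4.3.3 without a replicate block. The replicate numbers come from the labels and name different mice. Single genes, ratios within a mouse and lengths were compared by two-sided exact permutation tests with scipy 1.17.1, and p-values for lengths were adjusted over the 12044 genes with varying length rather than over the members as first planned. The fits were tested on simulated data. No libraries of one group were duplicates (smallest chi-square per degree of freedom 4.74 over 30 pairs). Vehicle-treated mouse 3 was the least like its group, at 21.0 to 27.1 against the other vehicle-treated mice, which lay at 4.74 to 9.24 among themselves. Pairs of SK-124-treated mice lay at 6.04 to 17.9 among mice 1 to 3 and at 9.63 to 12.4 among mice 4 to 6. Pairs of a mouse from 1 to 3 with a mouse from 4 to 6 lay at 13.6 to 32.8. DESeq2 1.42.0, limma 3.58.1 on log2(TPM + 1) and log2(TPM + 0.1), other scalings and filters, a replicate block and left-out mice were tried. Totals of 19244227 to 19771802 counts limit mainly Hnf4g. The genes named are the members, the genes of the functional and marker lists, and for each member the gene with the highest r; members and lists were chosen with earlier results of these data known. Ratios to segment markers were added after seeing the data. Some listed genes are not reported here and were left out of the lists and their counts.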

Additional observations from a re-analysis of the deposited data

Results flagged for a closer look

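One value stood apart from the other mice of its group. The average transcript length of Tfcp2l1 was 9103 bases in SK-124-treated mouse 2, where the other 5 SK-124-treated mice were all at 9269 bases, the length of the longest annotated transcript, so that its gap to the nearest mouse made up the whole range of the group. In all, 9 of 12 mice were at 9269 bases, and the lowest length in vehicle-treated mice was 9082 bases. Of 36 groups of 6 mice examined, 1 was singled out in this way, and chance singles out about 1 in 20.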

How the results depend on the processing

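Nr1h4 and Pax2 kept their direction and their call under all 22 alternative settings of the fit. The log2 fold change ran from 0.71 to 0.96 for Nr1h4 and from -0.65 to -0.43 for Pax2. Ratios to segment markers were judged by unadjusted exact permutation tests and not by FDR. There Nr1h4 was higher by 0.89 (exact permutation p = 0.00216). Pax2 differed by -0.69 with Aqp2 in the sum (exact permutation p = 0.00216) and by -0.31 without it (exact permutation p = 0.0260). Tfap2b kept its call with each mouse left out in turn (-0.46 to -0.35). It did not with limma on log2(TPM + 1) (-0.30) or log2(TPM + 0.1) (-0.32), or with SK-124-treated mice 1 to 3 only (-0.34). In these 3 settings 1 member was called lower in place of 2. Relative to its segment markers Tfap2b was at -0.16 (exact permutation p = 0.413). Signs turned only for members that were not called. Pax8 and Tfcp2l1 were at -0.044 and -0.010 with library totals only, and at -0.10 and -0.049 with log2(TPM + 1) and -0.10 and -0.054 with log2(TPM + 0.1). Hnf4a and Maf were at 0.019 and 0.016 with SK-124-treated mice 1 to 3 only, and with a mouse left out they ranged from -0.052 to 0.0077 (Hnf4a, turned without vehicle-treated mouse 4, SK-124-treated mouse 3 or SK-124-treated mouse 4) and from -0.16 to 0.0032 (Maf, turned without SK-124-treated mouse 3).

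Over all genes, library totals only gave 777 higher and 3058 lower (20.3% of calls higher, against 44.5%), and limma gave 500 higher on log2(TPM + 1) and 498 on log2(TPM + 0.1). SK-124-treated mice 1 to 3 only gave 2298 calls, 1233 of them lower, and mice 4 to 6 only gave 1267 lower, with fewer samples in each. The HNF4 list had 5 calls with library totals only and DESeq2, and 3 to 6 with a mouse left out (6 without vehicle-treated mouse 3). The NR1H4 list had 1 call with library totals only, both TPM settings and SK-124-treated mice 1 to 3 only, and the TFAP2B and TFCP2L1 segment list had 4 with both TPM settings. With a mouse left out, the length difference ranged from -495 to -267 bases for Tfap2b, with an unadjusted exact permutation p of 0.00866 to 0.0563, above 0.05 without vehicle-treated mice 1, 2 or 3 or SK-124-treated mice 3 or 4, from -2.19 to 2.80 bases for Hnf4g and from -1.21 to 53.2 bases for Tfcp2l1. The cause of these changes was not tested.

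Same-numbered mice were not treated as pairs in the main fit. Their deviations from the group means correlated at -0.13 to 0.22, and only numbers 2 and 3 correlated best with their own number. These few correlations cannot decide whether same-numbered mice share more than a number. With the replicate block, 1573 genes were higher and 1893 lower, and each member's call and direction held.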
